A study of Macaca fascicularis with 48 samples.

Results

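The comparison concerns the cervical spinal cord, the neck part of the cord, of cynomolgus monkeys (Macaca fascicularis) given GS-8873 by mouth, and it rests on 8 of the 48 messenger RNA libraries of the series. Members were taken by sample title: 4 libraries from animals dosed by gavage at 6 mg/kg/day for 13 weeks, and 4 from animals that received 0 mg/kg/day over the same time. The submitters describe GS-8873 as an inhibitor of transcripts of hepatitis B virus. The labels name no engineered allele and no infection in either group. Each library came from a different animal, with 2 males and 2 females in each group. The tissue code in the description of treated replicate 3 differs from the one shared by the other 7 cervical libraries, and the labels do not say what the code marks. The same 8 animals also gave thoracic and lumbar cord, which appear below only for comparison. Depth was 37906816 to 46296164 counts a cervical library, where both mates of a pair count, and levels are CPM, read counts relative to the library's total, scaled by TMM, which evens out differences in library composition.

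Cord tissue makes most of its own cholesterol, because lipoproteins of the blood do not cross into it, and oligodendrocytes need that cholesterol, together with long-chain fatty acids, to build and maintain myelin. The pathway runs from acetyl-CoA through mevalonate and squalene to lanosterol and then through a series of sterol conversions. The transcription factor SREBP2, encoded by SREBF2, switches on most of its genes when sterols in the endoplasmic reticulum run low, SREBP1 does so mainly for fatty acid genes, and liver X receptors (LXR) switch on efflux genes when oxysterols are abundant.

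Cell type markers showed central myelin in every library, and 2 libraries stood apart, control replicate 1 by its markers and treated replicate 4 by its composition. MOG, a myelin protein of oligodendrocytes, had 481 to 972 CPM of total counts over the 8 libraries, and SNAP25, a synaptic protein of neurons, had 758 to 2191 CPM in 7 of them. Control replicate 1 had 16.6 CPM of SNAP25, 1.21 CPM of the inhibitory neuron gene GAD1 and 0.425 CPM of the neuronal splicing factor RBFOX3. The same library had 1171 CPM of the connective tissue gene DCN, against 37.1 to 317 CPM in the other 7, and 773 TMM-scaled CPM of DRP2, a scaffold protein of Schwann cell myelin, against 8.90 to 115. The first principal component, which held 50.3% of the variance, placed it at -124.5 and the other 7 libraries between -13.5 and 49.01. Treated replicate 4 differed in another way: 25.7% of its counts fell on the mitochondrial genome, against 8.77% to 17.2% in the other 7 libraries. When genes were cut by summed exon length into 5 classes of 2847, its shortest genes (53 to 1579 bases) lay at a median of 0.45 on the log2 scale above the mean of the 8 libraries, and its longest genes (5220 bases and over) at -0.39. Levels of position genes varied too, since HOXC8 had 6.38 CPM in treated replicate 2 and 1.65 CPM in control replicate 3, against 13.9 to 75.6 CPM in the other 6. HOXD10, a gene of the lumbar cord, was at 0.05 CPM or less in all 8 libraries. Counts of the lipid, efflux, vessel and several cell type lists are therefore also given without control replicate 1, and without it and treated replicate 4 together. That choice was made after these values were seen.

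**Figure D1:**
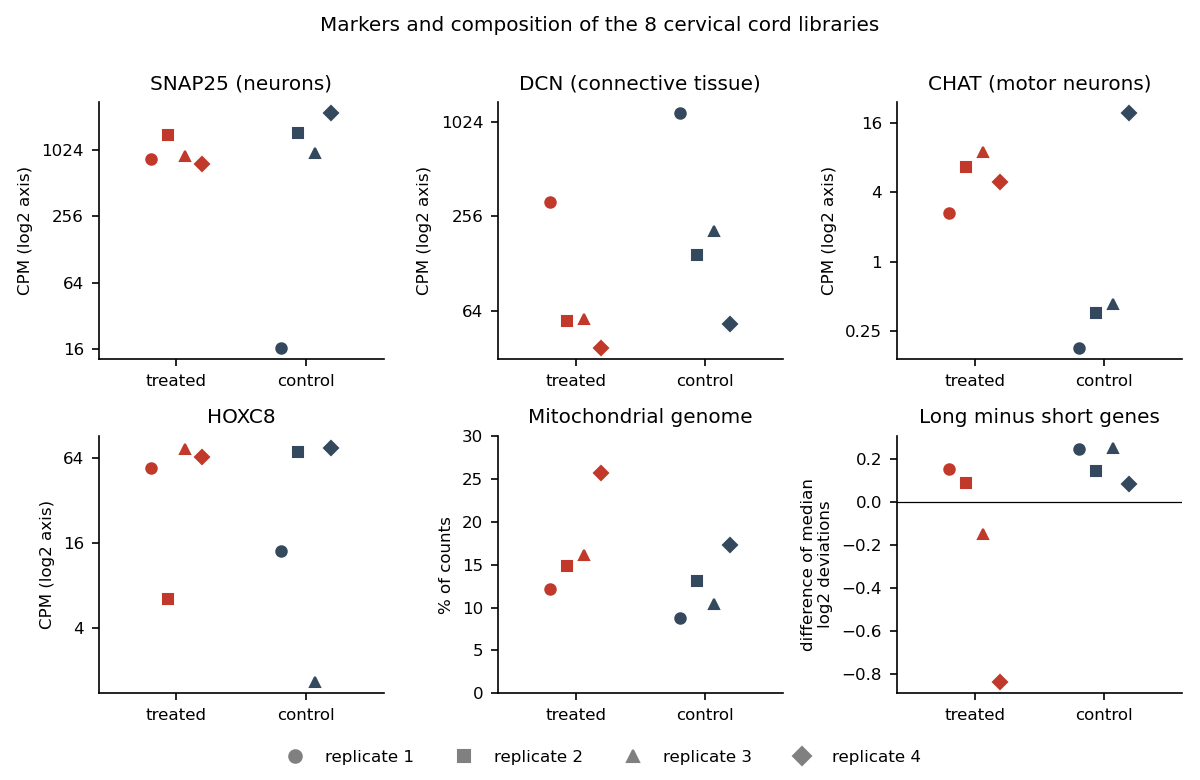
Marker levels and composition of each cervical cord library, by group. The first 4 panels plot CPM of total counts on log2 axes, and the others the percent of counts on the mitochondrial genome and the median log2 deviation of the longest class of genes minus that of the shortest. Control replicate 1 (circle) has 16.6 CPM of SNAP25 and 1171 CPM of DCN, and treated replicate 4 (diamond) has the highest mitochondrial share, 25.7%, and the lowest difference between long and short genes, -0.84.

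Over all genes, no transcript passed the adjusted threshold in these 8 libraries, and the genes nearest to it were enzymes of cholesterol synthesis. Of 14235 genes tested in edgeR with sex as covariate, 0 had an adjusted p under 0.05, and 1356 (9.53%) had an unadjusted p under 0.05, of which 661 (4.64%) were higher and 695 (4.88%) lower in treated cord. The lowest adjusted p, 0.0543, belonged to CYP51A1 and HMGCS1. In limma voom 0 genes passed, and in DESeq2 93 genes passed, 38 of them higher (0.255% of the 14895 with an adjusted p) and 55 lower (0.369%). All 4 treated animals lay above all 4 controls for 450 genes (3.16%) and below them for 414 genes (2.91%), together 6.07%. The median log2 fold change of all genes was 0.00, so scaling placed the groups on a common centre. When the spread was estimated from all 24 cord libraries in 1 edgeR fit, 6 genes passed in cervical cord. They were LSS, CYP51A1, SC5D, IDI1, HSD17B12 and SCARA3, each lower in treated animals. That fit had no term for animal, although each animal gave several of its libraries. HSD17B12, which encodes a reductase of fatty acid elongation and was picked out after its values were seen, had 144, 151, 143 and 190.3 CPM in treated animals 1 to 4 and 275, 323, 253 and 275 CPM in control animals 1 to 4, which did not overlap. In the fit of the 8 libraries its log2 fold change was -0.84 ± 0.15 (SE) and the edgeR adjusted p was 0.35.

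In the mevalonate arm HMGCS1, IDI1 and FDFT1 had lower values in treated cord, and the kinases MVK and PMVK did not separate the groups. HMGCS1 (chromosome 6, 43908492 to 43931552 on the Macaca_fascicularis_5.0 build), which makes HMG-CoA, had 110.0, 142, 101 and 96.3 CPM in treated animals 1 to 4, against 489.6, 372, 412 and 290.0 CPM in control animals 1 to 4. The highest treated value lay below the lowest control value, and the log2 fold change was -1.80 ± 0.17 (SE) at 0.0543 for the edgeR adjusted p. IDI1, the isomerase that yields the branched building block of isoprenoids, had 98.7, 133, 112 and 171 CPM in treated and 333, 282, 259 and 248 CPM in control animals. FDFT1, which commits the pathway to squalene, had 89.1, 107, 113 and 162 CPM in treated animals and 214, 189, 189 and 174 CPM in control animals. In all 3 genes the treated animals sat below every control, although treated replicate 4 came close to the lowest control for FDFT1. The log2 fold changes were -1.12 ± 0.20 for IDI1 and -0.72 ± 0.19 for FDFT1. MVK, mevalonate kinase, had 26.5, 23.8, 31.9 and 47.04 CPM in treated and 34.2, 40.3, 36.6 and 33.2 CPM in control animals, and PMVK, the next kinase, had 30.4, 24.997, 37.3 and 80.8 CPM in treated and 33.6, 29.97, 28.5 and 27.3 CPM in control animals. For both, treated replicate 4 was the highest of the 8 libraries and treated replicate 2 the lowest. MVD, the decarboxylase that follows, and GGPS1, which leads to longer isoprenoids, had log2 fold changes of 0.03 ± 0.25 and 0.16 ± 0.18. Of the 8 tested members of this arm 4 had an unadjusted p under 0.05, all lower, where 4.88% of all genes were lower by that rule, and the list median was -0.46, against 0.00 for all genes. Without control replicate 1 the count was 4, where 4.44% of all genes were lower, and the median -0.40. Without it and treated replicate 4 the count was 4, where 2.69% of all genes were lower, and the median -0.50. Summed oligodendrocyte markers had 51110 to 61887 CPM in treated and 52535 to 87201 CPM in control animals, and summed astrocyte markers 16655 to 26307 CPM in treated and 19277 to 25499.7 CPM in control animals, and their part in the lipid results was not tested. In whole tissue, fewer cells of a type and less RNA per cell cannot be told apart.

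The sterol-forming steps after squalene showed the same direction over more genes. SQLE, squalene epoxidase, had 67.8, 82.8, 68.6 and 100.5 CPM in treated and 155, 133, 147 and 133 CPM in control animals, and LSS, which closes the ring to lanosterol, had 56.7, 51.03, 42.3 and 60.99 CPM in treated and 135, 110.3, 108 and 86.2 CPM in control animals. CYP51A1 (chromosome 3, 119841973 to 119863162), the lanosterol demethylase, had 71.8, 80.2, 64.2 and 64.3 CPM in treated and 207, 178, 173 and 138 CPM in control animals, so its log2 fold change was -1.31 ± 0.12 and its edgeR adjusted p 0.0543. Its 4 treated values spanned a narrow range, well under the lowest control. MSMO1, the C4-methyl oxidase, had 135, 162, 172 and 269.7 CPM in treated animals and 507, 425, 417 and 400.4 CPM in control animals. SC5D, the desaturase that introduces a ring double bond, had 130.4, 137, 129.6 and 150.2 CPM in treated and 345, 291, 272 and 294 CPM in control animals. DHCR7, a reductase near the end of the pathway, had 16.04, 18.8, 19.4 and 25.6 CPM in treated and 53.8, 41.9, 39.9 and 37.6 CPM in control animals. For the 6 genes named so far in this arm the groups did not overlap. Other members did overlap: FAXDC2, a relative of the sterol oxidases, had a log2 fold change of -0.38 ± 0.15, LBR, a C14 sterol reductase of the nuclear envelope, -0.39 ± 0.18, NSDHL, which removes the C4 carboxyl group, -0.35 ± 0.20, HSD17B7, its partner reductase, -0.30 ± 0.19, and EBP, the sterol isomerase, -0.24 ± 0.22. TM7SF2, the second C14 reductase, and ERG28, a scaffold of the C4-demethylation enzymes, had 0.28 ± 0.27 and 0.04 ± 0.25. Of 14 members tested, 8 were lower at an unadjusted p under 0.05, where 4.88% of all genes were, and 0 higher, with a list median of -0.61. Without control replicate 1 there were 7, where 4.44% of all genes were lower, and the median was -0.56. Without it and treated replicate 4 there were 8, where 2.69% of all genes were lower, with all 14 members negative and a median of -0.73.

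**Figure D2:**
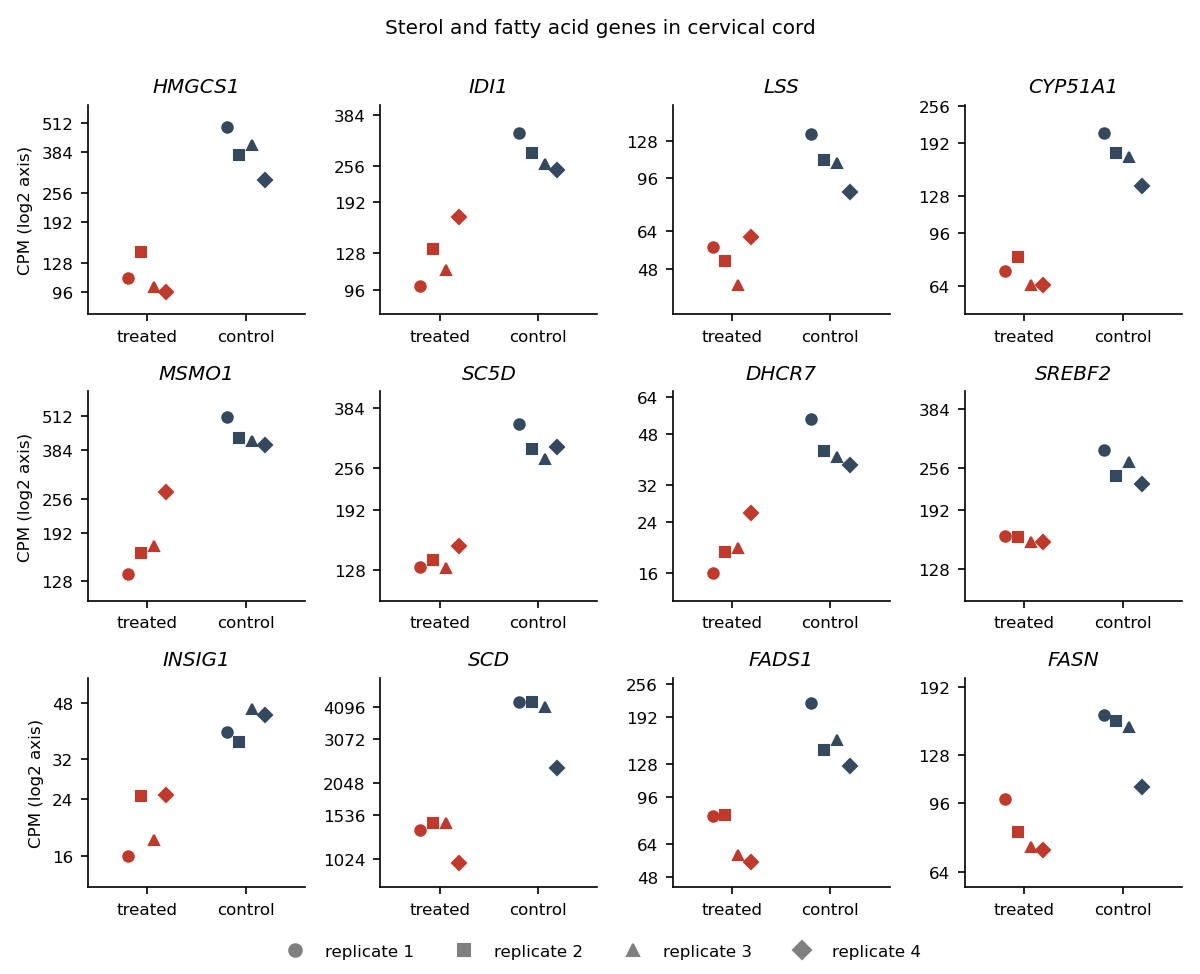
TMM-scaled CPM on log2 axes of 12 sterol and fatty acid genes in the 4 treated and 4 control animals, with 1 symbol per replicate. The panels show only genes whose groups did not overlap, so in every panel the highest treated animal lies below the lowest control animal. An example is HMGCS1, with 142 against 290.0 CPM. Of all genes 2.91% separated in this way, and 11 of the 22 tested cholesterol genes overlapped and are not shown.

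Of the 22 tested members of both arms, 11 had all treated animals below all controls, where 2.91% of all genes did, and 11 overlapped. Among the treated animals, replicate 4 had the highest value in 7 of the 11 genes that separated the groups and in 10 of the 11 that overlapped. Whether a gene overlaps depends on its highest treated value, so these counts are not independent of the split. Summed exon lengths ran from 1719 to 4806 bases in the genes that separated the groups and from 1099 to 3878 bases in those that overlapped. Across all genes, log2 fold changes moved with length, with a median of 0.25 in the shortest class and -0.18 in the longest. At an unadjusted p under 0.05, 8.71% of the shortest class were higher and 2.21% lower, while 1.12% of the longest class were higher and 9.06% lower. The part of this length pattern in any single gene was not tested.

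Regulators of the pathway were split. SREBF2 (chromosome 10, 9166071 to 9257424), the gene of SREBP2, had 161, 159, 154 and 155 CPM in treated animals, against 291, 243, 267 and 229.6 CPM in control animals. The treated values were nearly equal and lay below all controls, at -0.71 ± 0.12 on the log2 scale (edgeR adjusted p 0.343). INSIG1, which holds SREBP in the endoplasmic reticulum and is itself a SREBP target, had 15.9, 24.6, 17.9 and 24.8 CPM in treated and 38.98, 36.2, 46.1 and 43.98 CPM in control animals. Its groups did not overlap, and the log2 fold change was -0.98 ± 0.18. STARD4, a cytosolic sterol carrier, gave -0.67 ± 0.21 and NPC1, which exports cholesterol from lysosomes, gave -0.42 ± 0.18, both with overlapping values. SREBF1, the gene of SREBP1, had 45.7, 63.6, 52.97 and 60.1 CPM in treated and 55.02, 44.7, 63.8 and 48.8 CPM in control animals, interleaved values with a log2 fold change of 0.07 ± 0.16. The escort protein gene SCAP (0.08 ± 0.12), INSIG2 (0.14 ± 0.15) and the protease genes MBTPS1 (-0.11 ± 0.14) and MBTPS2 (-0.14 ± 0.15), whose products carry or cut SREBP, also interleaved. NPC1L1, a sterol transporter, had 1 high library, control replicate 4 at 12.5 CPM against 0.588 to 2.44 CPM in the other 3 controls and 0.789 to 2.32 CPM in treated animals. LRP8, a receptor of APOE, TMEM97, a membrane protein that binds NPC1, RNF145, a ubiquitin ligase, and NPC2, the lysosomal sterol carrier, ran from -0.22 for LRP8 to 0.17 for NPC2 in log2 fold change, each within 1.5 SE of 0. Of the 16 members 5 were lower at an unadjusted p under 0.05, where 4.88% of all genes were. At the same threshold 0 were higher, where 4.64% of all genes were, and the list median was -0.18. Without control replicate 1 there were 4 lower, where 4.44% of all genes were. Without it and treated replicate 4 there were 3 lower, where 2.69% of all genes were, with a median of -0.10.

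Genes of fatty acid synthesis and desaturation lay lower as well. SCD (chromosome 9, 99263246 to 99281647), the desaturase that makes oleate, had 1332, 1417, 1416 and 986 CPM in treated animals, against 4298, 4294, 4101 and 2349 CPM in control animals, a log2 fold change of -1.53 ± 0.23. Control replicate 4 was the lowest control by a wide margin and was still above every treated animal. FADS1, which desaturates polyunsaturated fatty acids, had 81.5, 81.7, 58.02 and 54.6 CPM in treated and 217, 144, 158 and 125 CPM in control animals. FASN, fatty acid synthase, had 98.8, 80.8, 74.2 and 72.9 CPM in treated and 162, 156, 151 and 106 CPM in control animals, and ACACA, which makes its substrate malonyl-CoA, had 107, 108, 77.1 and 67.3 CPM in treated and 129, 148, 120.2 and 135 CPM in control animals. None of these overlapped between groups, and the log2 fold changes were -1.24 ± 0.16 for FADS1, -0.81 ± 0.14 for FASN and -0.60 ± 0.14 for ACACA. ME1, a source of NADPH, and SCD5, a brain desaturase, also did not overlap (-0.71 ± 0.21 and -0.56 ± 0.23). ELOVL5, an elongase, gave -0.58 ± 0.16 with 1 control inside the treated range. ACLY, which supplies cytosolic acetyl-CoA, had 237, 300.2, 326 and 261 CPM in treated and 257, 340.1, 282 and 556 CPM in control animals, and FADS2 had 269, 195, 295 and 279.9 CPM in treated and 395, 281, 385 and 248 CPM in control animals, with overlap in both. ELOVL7 had its highest value in control replicate 1 (85.02 CPM, against 18.7 to 26.7 CPM in the other controls), and its log2 fold change was -0.80 with and -0.25 without that library. ACACB, the mitochondrial carboxylase, gave -0.42 ± 0.21, and the elongases ELOVL4 and ELOVL2 and the acetate-activating enzyme ACSS2 gave 0.45 ± 0.53, -0.06 ± 0.18 and -0.03 ± 0.13. Of 14 members tested 7 were lower at an unadjusted p under 0.05, where 4.88% of all genes were. At the same threshold 0 were higher, where 4.64% of all genes were, and the median was -0.57. Without control replicate 1 there were 7 lower, where 4.44% of all genes were, and the median was -0.45. Without it and treated replicate 4 there were 6 lower, where 2.69% of all genes were, and the median was -0.35. DESeq2 passed 3 of 8 mevalonate genes, 7 of 14 sterol genes, 3 of 16 genes of regulation and uptake and 3 of 14 fatty acid genes, all lower, against 0.369% lower over all genes.

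The lipid counts were also taken without other libraries. Without treated replicate 4 alone, 5 of 8 mevalonate genes, 10 of 14 sterol genes, 3 of 16 genes of regulation and uptake and 7 of 14 fatty acid genes were lower at an unadjusted p under 0.05, where 3.18% of all genes were lower, and 0 were higher, where 2.64% were. Without control replicate 3 and treated replicate 2, the libraries with the least HOXC8, the counts were 4, 7, 4 and 6 lower, where 1.11% of all genes were lower, and 0 higher, where 1.31% were. The list medians were -0.56, -0.76, -0.12 and -0.44 without treated replicate 4, and -0.44, -0.63, -0.27 and -0.62 without the other pair.

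**Figure D3:**
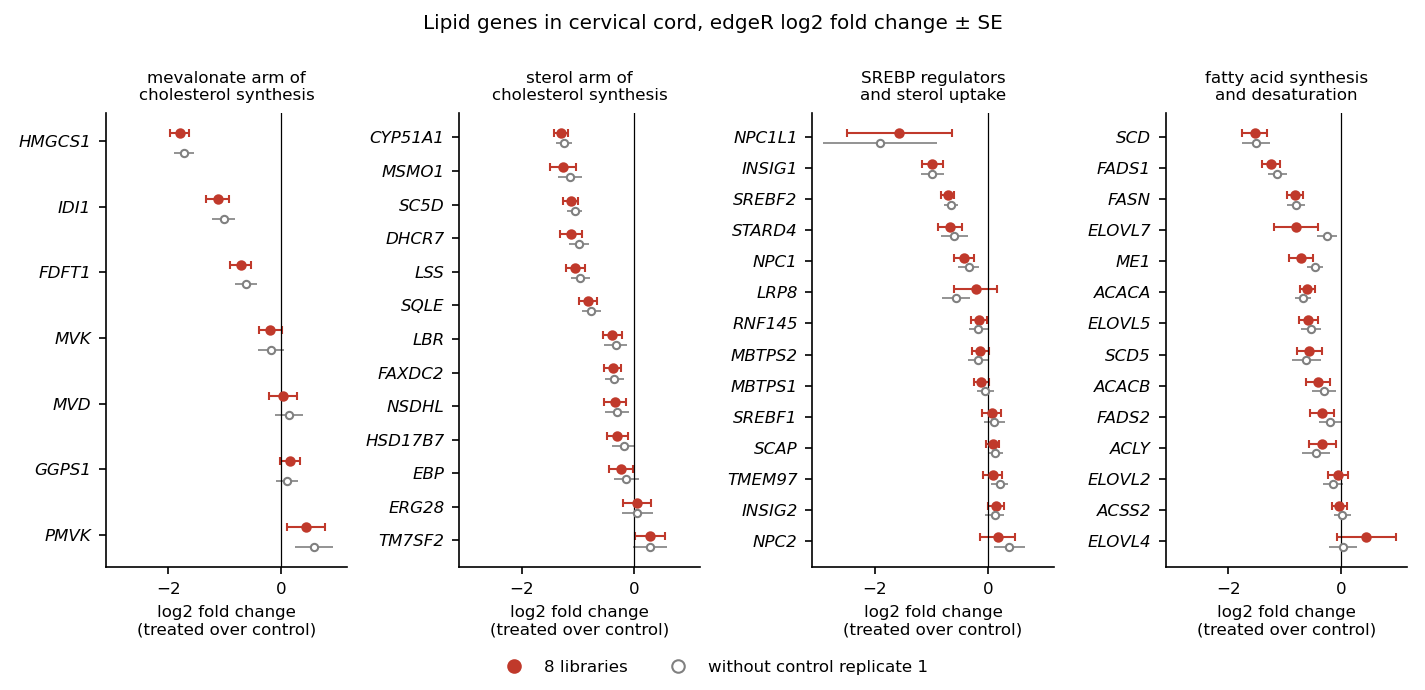
The edgeR log2 fold change (treated over control) of the tested members of 4 lipid lists that are reported here, with bars of 1 SE. Filled red points use 8 libraries and open grey points leave out control replicate 1. Points left of 0 are lower in treated cord; over 8 libraries values run from -1.80 for HMGCS1 to 0.45 for ELOVL4, and ELOVL7 moves from -0.80 to -0.25 when control replicate 1 is left out.

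The branches that leave the pathway before squalene, and those that build myelin lipids from fatty acids, did not follow the sterol arm in number. Of 8 tested genes of the isoprenoid and dolichol branch 1 was lower at an unadjusted p under 0.05, where 4.88% of all genes were. Without control replicate 1 the count was 0, where 4.44% of all genes were lower. Over the 8 libraries 5 members were positive, as were 50.5% of all genes, and the median was 0.15. The lower gene was PGGT1B, a subunit of a geranylgeranyl transferase, with 10.04, 8.68, 5.09 and 6.08 CPM in treated and 11.1, 10.02, 9.70 and 9.24 CPM in control animals, which overlapped. DHDDS, which elongates dolichol, gave a log2 fold change of 0.15 ± 0.15, and COQ2 and COQ3, which make ubiquinone, gave 0.38 ± 0.29 and 0.33 ± 0.23, with treated replicate 4 the highest library for all 3. Of 10 myelin lipid enzymes 1, UGT8, the galactosylceramide synthase, was lower by the unadjusted rule, and the list median was -0.20. UGT8 had 782, 639.7, 593 and 487 CPM in treated and 1081, 1107, 917 and 632 CPM in control animals, and 1 control fell within the treated range. CERS2, which makes very long-chain ceramides, gave -0.33 ± 0.18 and SPTLC2, a subunit of the enzyme that starts sphingolipid synthesis, gave -0.46 ± 0.24. Fatty acid oxidation had a median of -0.06 over 15 members, with 1 lower and 1 higher, where 4.88% and 4.64% of all genes were. ACADL, a long-chain acyl-CoA dehydrogenase, had 10.2, 8.73, 10.8 and 6.14 CPM in treated and 10.9, 15.6, 17.1 and 11.4 CPM in control animals without overlap, and PDK4, which turns cells from glucose towards fat, gave -0.80 ± 0.35. ANGPTL4, a secreted inhibitor of lipoprotein lipase, had 18.2, 15.9, 20.6 and 27.3 CPM in treated and 9.60, 12.6, 7.32 and 10.1 CPM in control animals. Its groups did not overlap either, and its log2 fold change was 1.04 ± 0.24.

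Genes of sterol efflux and LXR action had mixed directions, with higher values for APOE and ABCA1 among others. APOE, the main lipoprotein of the nervous system, secreted by astrocytes and microglia, had 805, 660.1, 1051 and 1258 CPM in treated and 531, 531, 538 and 399 CPM in control animals. ABCA1, the LXR-driven transporter that loads APOE with cholesterol, had 159, 146, 94.97 and 63.9 CPM in treated and 71.5, 49.1, 73.8 and 58.4 CPM in control animals. NR1H2, the gene of LXR beta, had 43.1, 42.9, 49.4 and 78.2 CPM in treated and 37.3, 38.4, 36.04 and 39.4 CPM in control animals. APOE and NR1H2 did not overlap between groups, while for ABCA1 treated replicates 1 and 2, both males, were the highest and treated replicate 4 lay among the controls. The log2 fold changes were 0.88 ± 0.22 for APOE, 0.80 ± 0.27 for ABCA1 and 0.47 ± 0.19 for NR1H2, and MYLIP, an LXR target that encodes a ubiquitin ligase and was named after its values were seen, gave 0.46 ± 0.20 with overlap. SOAT1, which esterifies cholesterol for storage, went the other way, with 21.9, 21.1, 20.4 and 17.8 CPM in treated and 27.9, 25.4, 26.1 and 27.02 CPM in control animals. Of the 13 tested members 4 were higher and 1 lower at an unadjusted p under 0.05, against 4.64% and 4.88% of all genes, and the median was 0.06. Without control replicate 1 the median was 0.32 with the same counts of 4 and 1, against 4.87% and 4.44% of all genes. Without it and treated replicate 4 the counts were 3 and 0, against 2.68% and 2.69% of all genes, and the median 0.28. APOE and NR1H2, with summed exon lengths of 1180 and 2071 bases, were highest in treated replicate 4, the library in which short genes were high.

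Markers of blood vessels formed a second group of lower values. TEK, the endothelial receptor of angiopoietins, had 13.4, 19.5, 17.9 and 9.99 CPM in treated and 25.5, 26.1, 26.4 and 30.7 CPM in control animals. RGS5, a marker of pericytes, had 54.5, 111, 68.5 and 57.7 CPM in treated and 129, 126, 115 and 155 CPM in control animals. PECAM1, an endothelial adhesion protein, had 24.96, 31.5, 34.8 and 20.8 CPM in treated and 50.7, 36.3, 46.6 and 46.6 CPM in control animals. All 3 separated the groups completely, as did VWF, the clotting factor made by endothelium (-0.88 ± 0.29), and SLC2A1, the glucose transporter of the blood-brain barrier, named after its values were seen (-0.52 ± 0.19). The log2 fold changes were -0.84 ± 0.23 for TEK, -0.86 ± 0.24 for RGS5 and -0.68 ± 0.20 for PECAM1, and edgeR's adjusted p was 0.504 for all 3. Of the 14 tested members 13 were negative, as were 49.5% of all genes, and 5 were lower at an unadjusted p under 0.05, where 4.88% of all genes were, with a median of -0.60 and summed levels of 459 to 631 CPM in treated animals, against 702 to 1033 CPM in control animals. Without control replicate 1 there were 4, where 4.44% of all genes were lower, and the median was -0.48. Without it and treated replicate 4 there were again 4, where 2.69% of all genes were lower, while 10 members were negative and the median was -0.25. Markers of fibroblasts and of Schwann cells, which were highest in control replicate 1, had medians of -0.94 and -1.90 with that library and -0.33 and -0.48 without it. Without it and treated replicate 4 the fibroblast median was -0.03, and the Schwann cell median turned to 0.36, with 8 of 10 members positive. Their summed levels were 1130.1 to 3524 CPM in treated and 878 to 7300.5 CPM in control animals for fibroblasts, and 346 to 1623 CPM in treated and 308 to 12052 CPM in control animals for Schwann cells. The part of these cells in the vessel result was not tested.

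Glial markers overlapped between the groups with a few exceptions. In oligodendrocytes, MBP, the abundant myelin basic protein, had a log2 fold change of -0.19 ± 0.23 and MOG gave 0.35 ± 0.23, both with overlapping groups. TF, the iron carrier that oligodendrocytes express strongly, gave -0.59 ± 0.22 and BCAS1, a gene of newly myelinating cells, gave -0.56 ± 0.19. OPALIN, a paranodal loop protein, went the other way at 0.70 ± 0.28, and of the 14 oligodendrocyte markers tested 2 were lower and 1 higher at an unadjusted p under 0.05, where 4.88% and 4.64% of all genes were, with a median of -0.03. Leaving out control replicate 1 gave 2 lower and 0 higher, where 4.44% and 4.87% of all genes were, with a median of 0.00. Without it and treated replicate 4 it was 1 lower and 0 higher, where 2.69% and 2.68% of all genes were, with a median of -0.08. Some precursor genes had higher values: OLIG2, the lineage transcription factor, had 16.3, 15.7, 18.6 and 21.96 CPM in treated and 9.98, 13.03, 10.7 and 10.95 CPM in control animals, and CSPG4, the NG2 proteoglycan, had 29.9, 24.9, 26.5 and 20.6 CPM in treated and 19.4, 19.9, 17.5 and 18.96 CPM in control animals. Neither overlapped, and the log2 fold changes were 0.69 ± 0.17 and 0.43 ± 0.15. OLIG1 gave 0.74 ± 0.28. Over the 10 precursor markers 3 were higher and 1 lower by the unadjusted rule, where 4.64% and 4.88% of all genes were. Of the 10 markers 6 were negative, and the median was -0.11. Their summed levels were 973 to 1554 CPM in treated and 1384 to 1925 CPM in control animals. With control replicate 1 left out it was 3 higher and 0 lower, where 4.87% and 4.44% of all genes were, and without it and treated replicate 4 it was again 3 and 0, where 2.68% and 2.69% were.

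In astrocytes, MLC1, a membrane protein of perivascular endfeet, had 252, 280.3, 318 and 329.8 CPM in treated and 403.3, 474, 507 and 457 CPM in control animals. The groups did not overlap, at a log2 fold change of -0.65 ± 0.13 (edgeR adjusted p 0.384), which was -0.68 without control replicate 1. GFAP, the filament protein that rises in reactive astrocytes, gave -0.10 ± 0.23 and the water channel AQP4, which shares the endfeet, gave -0.16 ± 0.16. Of 11 astrocyte markers tested 9 were negative, as were 49.5% of all genes, and the median was -0.16. At an unadjusted p under 0.05, 1 was lower and 0 higher, where 4.88% and 4.64% of all genes were. Without control replicate 1 there were 10 negative and 2 lower, where 4.44% of all genes were lower. Microglial genes had a median of 0.07 over 17 members, 0.46 without control replicate 1 and 0.24 without it and treated replicate 4. By the unadjusted rule 1 was higher, where 4.64% of all genes were. Without control replicate 1 there were 4, where 4.87% of all genes were higher. Without it and treated replicate 4 there was 1, where 2.68% of all genes were higher, and 0 were lower in each of these fits. TREM2, a microglial lipid receptor, had 35.2, 17.9, 28.5 and 38.8 CPM in treated and 23.3, 17.7, 16.6 and 12.998 CPM in control animals, with overlap at treated replicate 2. Its signalling partner TYROBP gave 0.82 ± 0.40 and AIF1, a general microglial marker, gave 0.58 ± 0.32, both with treated replicate 4 as the highest library.

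**Figure D4:**
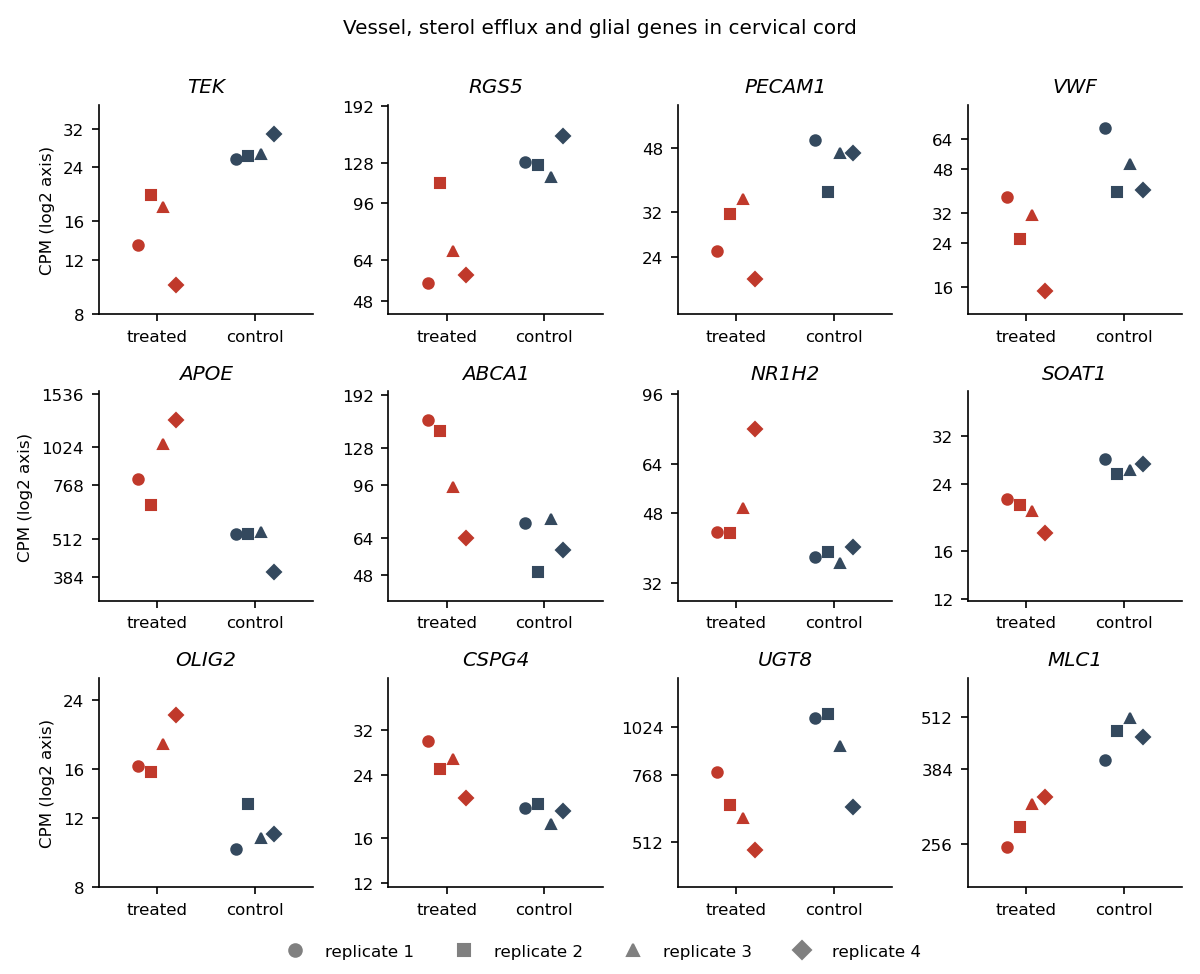
TMM-scaled CPM on log2 axes of 12 vessel, sterol efflux and glial genes in the 4 treated and 4 control animals, with 1 symbol per replicate. The vessel genes TEK, RGS5, PECAM1 and VWF, SOAT1 and the endfoot gene MLC1 lie lower in every treated animal than in any control, APOE, NR1H2, OLIG2 and CSPG4 lie higher in every treated animal, and ABCA1 and UGT8 overlap.

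Neuronal genes varied more between animals than between groups. SNAP25 had 769, 1308, 876 and 862 CPM in treated and 16.6, 1519, 918 and 2293 CPM in control animals, a log2 fold change of -0.22 ± 1.02. The neurofilament genes NEFL, NEFM and NEFH, which form the axonal skeleton and are read as markers of axon damage, gave 0.15 ± 1.03, 0.17 ± 1.00 and -0.35 ± 1.18. Control replicate 1 was the lowest and control replicate 4 the highest library for each of the 3 neurofilaments and for SNAP25. CHAT, the acetylcholine-making enzyme of motor neurons, had 2.45, 6.26, 8.87 and 5.61 CPM in treated and 0.178, 0.373, 0.407 and 20.4 CPM in control animals, and the vesicular transporter SLC18A3 had 3.68, 5.52, 17.9 and 20.8 CPM in treated animals, against 0 in control replicates 1 and 2, 0.136 CPM in control replicate 3 and 22.6 CPM in control replicate 4. Levels of these 2 motor neuron genes were low in 3 of 4 controls and highest in the fourth, so treated animals lay inside the control range. ISL1, a motor neuron transcription factor, and CHODL, a marker of fast motor neurons in mouse, gave 1.69 ± 0.60 and 0.98 ± 0.41. All 7 tested motor neuron genes had positive values, as did 50.5% of all genes, with a median of 1.56. Of them 2 had an unadjusted p under 0.05, where 4.64% of all genes were higher by that rule. The count was 1 and the median 0.93 without control replicate 1, where 4.87% of all genes were higher. Without it and treated replicate 4 the count was 0, where 2.68% of all genes were higher, and the median was 1.37. Among transport genes KIF5B, a kinesin heavy chain, had 482, 498, 415 and 248 CPM in treated and 659, 599.7, 603 and 617 CPM in control animals, and KIF1A, which carries synaptic vesicle precursors, gave -0.61 ± 0.29. For both, treated replicate 4 was the lowest of the 8 libraries. Of the 24 tested cytoskeletal and transport genes 18 were negative, as were 49.5% of all genes. By the unadjusted rule 1 was lower, where 4.88% of all genes were, with a list median of -0.29. There were 7 without control replicate 1, where 4.44% of all genes were lower, and the median was -0.57. Without treated replicate 4 there was 1, where 3.18% of all genes were lower, and the median was -0.07. Without both there were 3, where 2.69% of all genes were lower, and the median was -0.33.

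Ribosomal protein genes and mitochondrial transcripts were highest in treated replicate 4. Ribosomal protein genes, which are short, were positive in all 25 tested members, as were 50.5% of all genes, with a median of 0.40, and their summed level was 4214 to 11571 CPM in treated and 4205 to 5892 CPM in control animals. RPS15 had 122, 110.2, 165 and 366 CPM in treated and 114, 100.2, 93.3 and 93.1 CPM in control animals, so that treated replicate 4 stood far above the rest. Of the 25 members 1 was higher at an unadjusted p under 0.05, where 4.64% of all genes were. Without treated replicate 4 the list median was 0.05, with 16 members positive and 1 higher, where 2.64% of all genes were. Without it and control replicate 1 the median was 0.19, with 24 members positive and 3 higher, where 2.68% of all genes were. Without control replicate 1 alone the median was 0.60, with all 25 positive and 5 higher, where 4.87% of all genes were. Transcripts of the mitochondrial genome summed to 111950.0 to 291910.0 CPM in treated and 87309.6 to 180562 CPM in control animals, and COX2, a subunit of cytochrome oxidase encoded there, gave 0.89 ± 0.32.

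The remaining lists held few members past the unadjusted threshold. Of all genes 49.5% were negative, and 4.88% were lower and 4.64% higher by that threshold. TFRC, the transferrin receptor, had 91.3, 112, 94.8 and 73.4 CPM in treated and 123, 122, 169 and 172 CPM in control animals, at -0.64 ± 0.19 and also without overlap. Lysosomal genes held 3 lower members of 16, the membrane proteins LAMP1 (-0.53 ± 0.16) and LAMP2 (-0.41 ± 0.14) beside NPC1, and their median was -0.08. Without control replicate 1 there were 2 lower, where 4.44% of all genes were, and the median was 0.03. Without it and treated replicate 4 there was 1 lower, where 2.69% of all genes were, and the median was -0.05. The summed level of immediate early genes was highest in control replicate 1, where FOSB had 14.8 CPM, against 0.335 to 0.740 CPM in treated animals and 0.61 to 1.29 CPM in the other controls. ARC, an activity-regulated gene, went the other way at 1.62 ± 0.43, the clock output gene DBP gave 0.57 ± 0.20 and HOXC4, a gene of the cervical cord, gave 0.59 ± 0.22. The chaperone gene HSP90AA1 gave -0.33 ± 0.21 with interleaved groups, while the small chaperone HSPB1 gave 0.86 ± 0.30 and was highest in treated replicate 4. Among 18 genes of mRNA deadenylation and decay 14 were negative and 1, the deadenylase gene CNOT6 at -0.52 ± 0.17, was lower by the unadjusted rule, with treated replicate 4 the lowest library for it. Among ion channel genes KCNA1, a potassium channel next to the node of Ranvier, gave -1.15 ± 0.70, and 11 of 17 were negative, with a median of -0.28 and 0 at an unadjusted p under 0.05. Leaving out control replicate 1 gave 16 negative, a median of -0.62 and 2 lower by that rule. Without treated replicate 4 it was 6 negative with a median of 0.15, and without both all 17 were negative with a median of -0.34. By that rule 0 passed in either, where 3.18% and 2.69% of all genes were lower and 2.64% and 2.68% higher. The lists of the unfolded protein response, the integrated stress response, NRF2 and AHR targets held 0 members at an unadjusted p under 0.05 among 15, 14, 13 and 5 tested. In the fit without control replicate 1 the unfolded protein response held 1 higher, the integrated stress response 1 lower and 1 higher, NRF2 targets 1 lower and AHR targets 0. Over the 8 libraries, interferon-stimulated genes held 1 lower and 1 higher of 17, CXCL10 at -1.60 ± 0.61 and IFIT1 at 0.31 ± 0.13. Genes of nerve injury held 1 lower of 14 in the same fit. Without control replicate 1 there were 0 lower and 2 higher interferon-stimulated genes, and 1 lower and 1 higher gene of nerve injury. In that fit 4.44% of all genes were lower and 4.87% higher.

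TENT4A and TENT4B encode poly(A) polymerases that some inhibitors of hepatitis B virus transcripts bind, and ZCCHC14 encodes their RNA-binding partner. TENT4A had 15.9, 15.9, 12.2 and 7.95 CPM in treated and 16.3, 13.3, 14.97 and 12.7 CPM in control animals, and TENT4B had 13.8, 14.1, 10.4 and 6.50 CPM in treated and 11.5, 12.5, 12.1 and 15.7 CPM in control animals. ZCCHC14 had 56.4, 52.4, 49.1 and 45.7 CPM in treated and 61.6, 48.9, 62.5 and 56.6 CPM in control animals. All 3 interleaved, with treated replicate 4 the lowest library for each. Together with TENT2, another poly(A) polymerase (-0.13 ± 0.13), and ZCCHC2 (-0.30 ± 0.17), a relative of ZCCHC14, the list had 5 tested members. Of these 0 had an unadjusted p under 0.05, where 9.53% of all genes did. All 5 were negative, as were 49.5% of all genes, and the median was -0.18. Without control replicate 1 all 5 were again negative. Without it and treated replicate 4 there were 3 negative, and the median was -0.06.

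Outside the lipid lists, the lower genes with the smallest p included MYO1D, an unconventional myosin of myelinating cells, with 36.1, 28.99, 25.8 and 13.6 CPM in treated and 99.1, 84.4, 76.5 and 44.98 CPM in control animals (-1.56 ± 0.25). SCARA3, a scavenger receptor-like protein, had 81.4, 62.1, 67.04 and 52.8 CPM in treated and 247, 187, 242 and 110.5 CPM in control animals (-1.57 ± 0.26). SAMD4A, a translational repressor that binds RNA hairpins, gave -1.65 ± 0.27 and the kinase gene RPS6KA2 gave -0.999 ± 0.16. For these 4 genes every treated animal lay below every control, and treated replicate 4 was the lowest library. Among the higher genes were NEU4, a sialidase, with 32.7, 30.1, 51.8 and 50.6 CPM in treated and 20.6, 16.9, 22.4 and 23.1 CPM in control animals, and PTGES, an inducible prostaglandin E synthase, with 26.4, 24.3, 25.1 and 50.6 CPM in treated and 16.5, 11.99, 11.6 and 12.1 CPM in control animals. PPP1R17, a phosphatase inhibitor, had 32.3, 40.2, 56.3 and 84.4 CPM in treated and 18.1, 14.9, 12.8 and 25.6 CPM in control animals, with a log2 fold change of 1.503 ± 0.29. Their groups did not overlap, and neither did those of CPNE6 (0.66 ± 0.11), RGS2 (0.71 ± 0.15), OGFR (0.66 ± 0.14), HAGHL (0.86 ± 0.19), BTBD17 (1.57 ± 0.30) and TMEM121 (1.92 ± 0.36). CDT1, a replication licensing factor (2.78 ± 0.57), MAPK11, a p38 kinase (0.74 ± 0.15), and MEIS3, a homeobox cofactor (0.78 ± 0.18), overlapped at their edges. Each of these 16 genes had an edgeR adjusted p between 0.343 and 0.504.

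Both sexes had lower values in treated animals for most sterol genes. In HMGCS1 the treated minus control difference of mean log2 CPM was -1.77 in males and -1.81 in females, and in CYP51A1 it was -1.34 and -1.26. In MSMO1 the difference was -1.65 in males and -0.92 in females, in IDI1 -1.42 and -0.87, in DHCR7 -1.45 and -0.79, and in FDFT1 -1.04 and -0.42. Treated replicates 3 and 4, whose short genes were high, were the 2 treated females, so sex and that length pattern cannot be told apart in the treated group. Of the 14 tested genes of the sterol arm 11 were lower in both sexes, where 27.5% of all genes were. The interaction of treatment and sex passed for 0 of 14235 genes in edgeR, with 1384 (9.72%) at an unadjusted p under 0.05, and DESeq2 passed 91. The interaction term, male minus female, was -0.64 ± 0.31 for FDFT1 and -0.76 ± 0.36 for MSMO1, at edgeR adjusted p of 0.521 and 0.513. The 5 genes with the smallest p for this term were CNMD (-0.39 in males and 1.49 in females), OTOP1 (1.97 and -0.90), ZDBF2 (0.54 and -0.86), TENM3 (0.96 and -0.77) and BMPR2 (-0.02 and -1.58). With 2 animals per sex and group the precision of these values is low. Control replicate 1, which stood apart by its markers, was 1 of the 2 male controls, so every male difference here includes it.

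Thoracic and lumbar cord of the same animals, each with controls of its own region, also had lower values for the main lipid genes. HMGCS1 had a log2 fold change of -1.80 ± 0.17 in cervical, -1.95 ± 0.41 in thoracic and -1.32 ± 0.31 in lumbar cord. CYP51A1 gave -1.31 ± 0.12, -1.30 ± 0.26 and -0.90 ± 0.22 in the same order, and SREBF2 gave -0.71 ± 0.12, -0.79 ± 0.20 and -0.75 ± 0.18. In lumbar cord replicate 1 of each group had 0.26 CPM or less of MOG, and without these 2 libraries the lumbar value was -1.04 ± 0.21 for HMGCS1 and -0.78 ± 0.19 for CYP51A1. The medians of the lists were -0.46 cervical, -0.68 thoracic and -0.46 lumbar for the mevalonate arm, -0.61, -0.74 and -0.47 for the sterol arm, and -0.57, -0.63 and -0.48 for fatty acid synthesis. The vessel markers had -0.60, -0.38 and -0.55. A test of the cervical effect minus the mean of the other regions, in limma with animal as block, passed for 0 of 14748 genes and reached an unadjusted p under 0.05 for 126 (0.854%). The difference was -0.19 ± 0.35 for HMGCS1, 0.07 ± 0.15 for SREBF2 and -0.31 ± 0.34 for TEK, each within 1 SE of 0, and the smallest limma adjusted p of any gene was 0.9995. The genes with the smallest p were ARHGAP4 (0.46 ± 0.14), MAP1S (0.46 ± 0.15), C8orf34 (1.51 ± 0.51), ALDH16A1 (0.62 ± 0.21) and ZNF227 (-0.47 ± 0.16). The effect was thus not shown to differ between cervical cord and the rest of the cord.

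**Figure D5:**
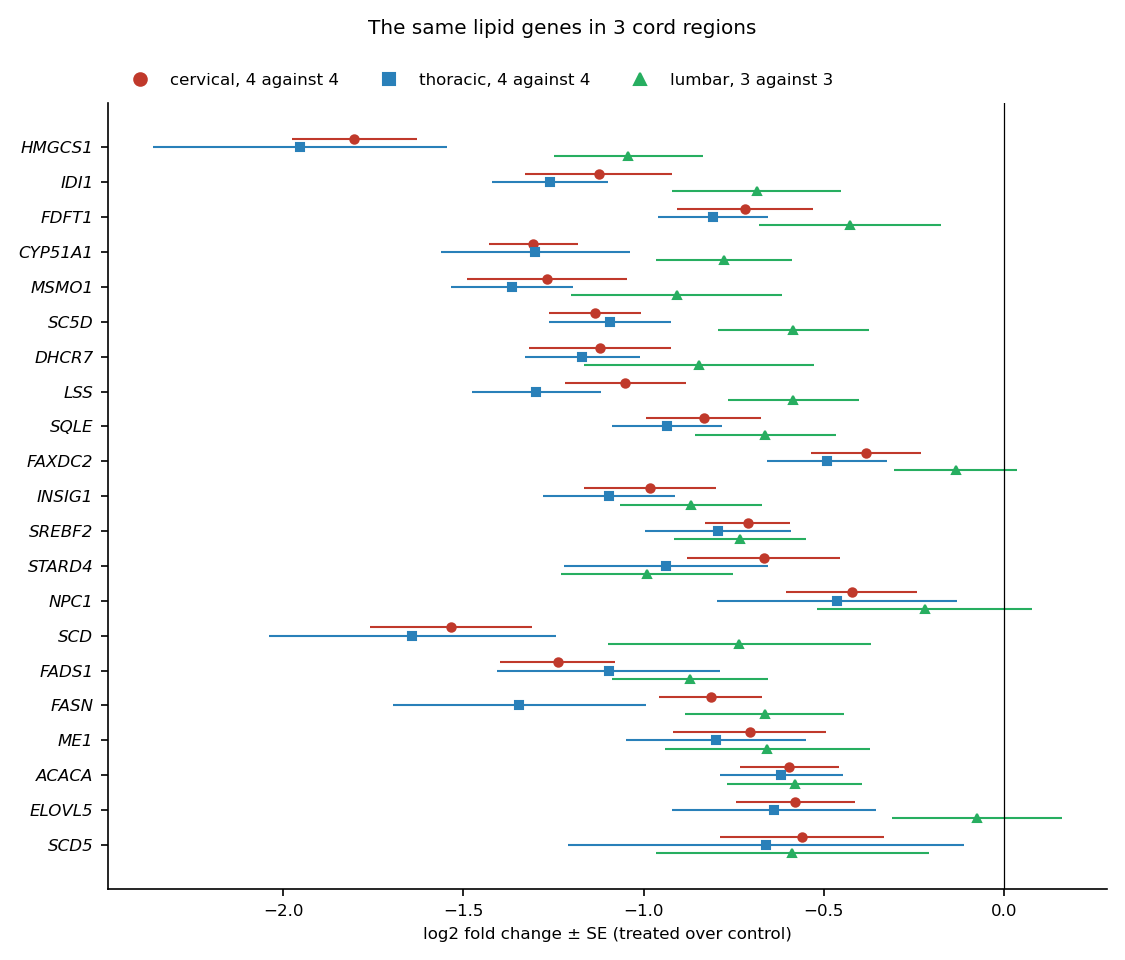
The log2 fold change (treated over control) with bars of 1 SE in cervical, thoracic and lumbar cord, for the lipid genes reported here with an unadjusted p under 0.05 in cervical cord. Lumbar values leave out the 2 libraries with almost no MOG. The genes were picked by their cervical values, which range from -1.80 for HMGCS1 to -0.38 for FAXDC2.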

How the data were processed

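Poly(A)-selected RNA (TruSeq stranded kit, paired reads, per the labels' protocols) was aligned, per the submitters' processing notes, with version 2.5.3a of STAR. Read counts per gene were deposited as whole numbers. Per the file headers they come from featureCounts 1.4.6-p1 on Ensembl 94 genes of Macaca_fascicularis_5.0, with no option for pairs or strand, so each mate counted once and sense and antisense reads were not told apart. Gene names carried by near-identical or overlapping genes can therefore share reads.

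The 8 cervical libraries (37906816 to 46296164 counts) were fitted in R 4.3.3 with edgeR 4.0.16 (TMM, filterByExpr, robust quasi-likelihood F test, sex as covariate), with Benjamini-Hochberg adjustment at 0.05 over all genes tested. Treatment by region used limma 3.58.1 voom with animal as random block over 24 cord libraries, and treatment by sex an edgeR interaction. Fold changes are log2, treated over control, with SE. In edgeR the SE was derived from the F statistic, as the absolute log2 fold change over the square root of F. The scripts were tested on simulated data. Depth limits precision mainly for genes of a few CPM.

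The members and the 48 gene lists were chosen with earlier results of these data known. Genes named were the 12 higher and 12 lower with the smallest p at a mean of at least 1 CPM, every member of 4 lipid lists, up to 4 members of every other list, a fixed set of markers, and 5 genes per interaction, apart from those said to be picked later. Some genes that this rule names are not reported here, but the lists' counts and medians include them. Alternatives were DESeq2 1.42.0, limma voom, other scaling and filters, no sex term, a replicate block, wider fits and leaving out libraries. Each animal gave 1 library per region, so p-values of the fits of cervical libraries alone measure the spread between animals. The wider fits held several libraries per animal and had no term for animal, so their p-values do not measure that spread alone. Same-numbered animals correlated in their deviations from the group means at 0.297, 0.129, -0.226 and 0.248 for replicates 1 to 4. These values do not settle whether the numbers pair the animals, and the main fit did not pair them. The replicate numbers come from the titles.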

Additional observations from a re-analysis of the deposited data

Results flagged for a closer look

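Of 288 groups of 4 animals examined, 23 held a sample whose gap to the nearest of the others exceeded Dixon's critical value for 4 samples, and chance flags about 1 in 20 such groups. Control replicate 1 was the sample in 8 of them and treated replicate 4 in 3. All values are TMM-scaled CPM.

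Treated replicate 4 stood apart for PTGES at 50.6 CPM (24.3 to 26.4 CPM in the other treated animals), for LBR at 27.01 CPM (39.5 to 40.04 CPM) and for DBP at 28.5 CPM (16.1 to 17.7 CPM). Treated replicate 1 stood apart for FAXDC2 at 97.4 CPM, ELOVL7 at 24.8 CPM, C8orf34 at 4.24 CPM and the Schwann cell gene DRP2 at 115 CPM. Treated replicate 2 stood apart for LAMP1 at 121 CPM.

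Control replicate 1 was far above the other controls for the Schwann cell gene DRP2 at 773 CPM, for the connective tissue genes LUM at 138 CPM and FN1 at 1431 CPM, and for PTGES at 16.5 CPM, TMEM97 at 48.6 CPM, ME1 at 164 CPM (91.5 to 97.4 CPM in the other controls), ELOVL7 at 85.0 CPM and the immediate early gene FOSB at 14.8 CPM. Control replicate 4 was below the other controls for SCD at 2349 CPM (4101 to 4298 CPM) and APOE at 399 CPM (531 to 538 CPM), and above them for TEK at 30.7 CPM, NPC1L1 at 12.5 CPM and the motor neuron genes CHODL at 65.8 CPM, CHAT at 20.4 CPM and SLC18A3 at 22.6 CPM.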

How the results depend on the processing

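No gene passed edgeR at an adjusted p under 0.05 in the fit of the 8 cervical libraries. The count stayed at 0 with limma voom, median-ratio scaling, a filter at a mean of 1 CPM, no sex term and each library left out in turn. It became 93 in DESeq2, 2 with no filter on low counts, 6 in the fit of 24 cord libraries and 11 in the fit of 48 libraries. The fits of 24 and 48 libraries held several libraries per animal and had no term for animal. Genes at an unadjusted p under 0.05 numbered 610 and 868 in the 24 and 48 library fits and 555 (without control replicate 3) to 1940 (without control replicate 2) over the libraries left out in turn, against 1356. There were 900 without treated replicate 2 and 834 without treated replicate 4. Chosen after seeing the data, leaving out control 1 and treated 4 gave 765 and leaving out control 3 and treated 2 gave 345, with 0 passing in each. A replicate block in place of sex gave 0 genes passing and 1669 at an unadjusted p under 0.05. In the check of pairing by deviations from the group means, treated animals 1 and 4 correlated best with the control of their own number, while treated animals 2 and 3 did not. For region, 0 genes passed throughout, and those at an unadjusted p under 0.05 numbered 126, 237 without the lumbar libraries that lacked MOG, and 57 to 305 with each animal left out. For sex, 0 genes passed in edgeR, 91 in DESeq2 and 0 to 510 with a library left out, and those at an unadjusted p under 0.05 ran from 577 to 2689.

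The cause of these differences was not tested. Log2 fold changes near 0 or with wide error changed sign: with limma voom SNAP25 (1.08) and NEFH (1.29), with the replicate block SNAP25 (0.42) and NEFH (1.03), and with no sex term NEFL (-0.054), NEFM (-0.038) and TENM3 (-0.043). Without control 1 and treated 4 it was GGPS1 (-0.090), MVD (-0.094), TM7SF2 (-0.031), ERG28 (-0.25), ELOVL4 (-0.000948), NEFL (-0.30), NEFM (-0.11), DRP2 (0.37), TENT4A (0.033) and TENT2 (0.0023), and without control 3 and treated 2 MBTPS1 (0.0088), RNF145 (0.023), GFAP (0.088), NEFL (-0.55) and NEFM (-0.57). Over the libraries left out in turn the ranges that crossed 0 were MVD (-0.19 to 0.17), ERG28 (-0.22 to 0.19), SREBF1 (-0.046 to 0.16), NPC2 (-0.076 to 0.38), LRP8 (-0.56 to 0.046), TMEM97 (-0.037 to 0.21), ELOVL2 (-0.14 to 0.12), ACSS2 (-0.099 to 0.047), SNAP25 (-0.75 to 0.63), NEFH (-0.89 to 0.88), NEFL (-0.35 to 1.11), NEFM (-0.34 to 1.20), ZDBF2 (-0.35 to 0.048) and TENM3 (-0.18 to 0.35). With median-ratio scaling the median log2 fold change of all genes was -0.0040, against 0.0043 with TMM.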
